A study of Rattus norvegicus with 21 samples.

Results

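The circadian clock genes examined were 10 genes picked by symbol: the period genes Per1, Per2 and Per3, the cryptochrome gene Cry1, Arntl (now named Bmal1) and Clock, the nuclear receptor genes Nr1d1 and Nr1d2 (REV-ERB alpha and beta), and the transcription factor genes Dbp and Tef. All 10 had a row of their own among the 17025 genes of the count table, and all 10 were among the 12576 genes that passed the filter on low counts. RNA came from primary pancreatic islets of Sprague Dawley rats, in 3 separate preparations, each made by pooling the islets of 8 animals and dividing them over the culture conditions, so that a library is a pool and not 1 animal. The ages of the rats are not given in the sources used here. The media compared were control medium with 11 mM glucose and no palmitate, and glucolipotoxic (GLT) medium with 27 mM glucose and 300 µM palmitate, for 3 h or 24 h. Some GLT cultures also held 300 nM of a compound, D in some and E in others. The structures and targets of both compounds are not given in the sources used here.

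Groups are named by the condition number of the sample titles. Condition 1 was 3 h control, condition 4 was 24 h GLT, condition 5 was 3 h GLT with compound D and condition 6 was 24 h GLT with compound D, each with 3 libraries, 1 per preparation. Condition 7, 3 h GLT with compound E, had 1 library (preparation 2), and condition 8, 24 h GLT with compound E, had 2 (preparations 1 and 2). Conditions 2 and 3, also with 3 libraries each, carry conflicting labels. The sample record calls condition 2 24 h control and condition 3 3 h GLT, while the deposited sheet calls condition 2 3 h GLT and condition 3 24 h control. Results from the 15 libraries without this conflict come first, and the 6 libraries of conditions 2 and 3 are then described under both readings, with no label changed.

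In the mammalian clock the proteins BMAL1 and CLOCK bind together to E-box sequences and switch on the Per, Cry and Nr1d genes. PER and CRY proteins then return to the nucleus and repress BMAL1 and CLOCK, while the REV-ERB receptors repress Arntl itself and compete with ROR receptors for the same sites, so that Arntl runs opposite to Nr1d1 in a cycling tissue. Dbp and Tef encode outputs of the loop that bind D-box sequences. Per1 is in addition an immediate response gene that cyclic AMP and glucocorticoids can switch on quickly, outside the daily cycle. Islets carry such a clock, and loss of Arntl in beta cells is known to impair insulin secretion. The time of day at which the islets were collected is not given in the sources used here, and clock time therefore cannot be told apart from culture time.

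Promoter windows of RefSeq (build GRCr8, from 250 bases before to 50 bases after an annotated start) were found for 9 of the 10 genes, 11 windows in all. They were searched on both strands for the E-box CACGTG, its variant CACGTT, the D-box TTATGTAA or TTACGTAA, the ROR and REV-ERB core TAGGTCA or TGGGTCA, and the cyclic AMP response element TGACGTCA. No matches overlapped in these windows. The 3 windows below are shown because each carries a different element of the loop, with the matched letters in capitals, 5′ to 3′ on the strand of the gene.
Per2 (chr9:99496944-99497243, minus strand): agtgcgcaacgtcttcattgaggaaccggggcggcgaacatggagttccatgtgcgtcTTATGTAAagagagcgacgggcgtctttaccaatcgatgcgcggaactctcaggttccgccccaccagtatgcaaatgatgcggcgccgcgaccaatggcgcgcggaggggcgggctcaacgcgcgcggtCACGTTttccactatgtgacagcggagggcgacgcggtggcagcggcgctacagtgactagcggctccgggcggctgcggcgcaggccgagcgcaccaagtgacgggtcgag
Nr1d1 (chr10:84229405-84229704, minus strand): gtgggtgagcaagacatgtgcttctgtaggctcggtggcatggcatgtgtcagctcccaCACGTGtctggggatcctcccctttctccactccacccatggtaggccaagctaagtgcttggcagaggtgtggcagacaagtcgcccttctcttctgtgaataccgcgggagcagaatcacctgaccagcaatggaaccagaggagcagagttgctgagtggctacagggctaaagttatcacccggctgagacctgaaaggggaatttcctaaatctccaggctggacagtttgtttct
Arntl (chr1:176766078-176766377, plus strand): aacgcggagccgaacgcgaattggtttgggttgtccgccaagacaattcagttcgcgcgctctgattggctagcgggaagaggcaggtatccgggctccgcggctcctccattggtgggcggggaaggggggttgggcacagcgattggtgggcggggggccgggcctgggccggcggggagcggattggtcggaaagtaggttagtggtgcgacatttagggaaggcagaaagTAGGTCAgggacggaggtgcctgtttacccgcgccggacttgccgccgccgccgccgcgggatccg
Per2 has TTATGTAA starting 192 bases and CACGTT starting 62 bases before its start, Nr1d1 has CACGTG at 191 bases before 1 of its 2 annotated starts, and Arntl has TAGGTCA at 16 bases before its start. Tef held CACGTG, and the other Nr1d1 window held CACGTT. The windows of Per1, Per3, Dbp, Nr1d2 and Clock held none of these letters, which says nothing of sites elsewhere in those genes. Among all 33469 RefSeq windows, CACGTG was in 6.42%, CACGTT in 4.83%, the D-box in 1.01%, the ROR and REV-ERB core in 6.6% and the cyclic AMP response element in 1.83%.

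Libraries held 22.3 to 40.2 M counts in genes (median 27.8 M), and the insulin genes took 9.32% to 45.9% of them. Levels below are CPM, a library's counts scaled by TMM to a common total of counts in genes, and 3 counts corresponded to 0.0804 to 0.144 CPM. The 10 genes were well above this, the lowest value being 33 reads of Per3. Endocrine marker genes were high in every library, with the 5 beta cell markers present summing to at least 75816 CPM, while the 6 acinar markers summed to at most 21.7 CPM. A few libraries stood apart from the others of their condition. Clock, at 26.1 to 39.0 CPM in the 3 libraries of 24 h GLT, was at 4.10 CPM in preparation 2 of 24 h GLT with compound D and at 3.12 CPM in preparation 1 of 24 h GLT with compound E. Relative to the other libraries of the condition, those were falls of -2.81 and -2.73 in log2, and 0.501% and 0.334% of all genes tested lay as low. These 2 libraries stood apart well beyond the clock genes, with 13.8% and 10.5% of all genes more than 2-fold low. The compound E group at 24 h has 2 libraries, so its values are measured against 1 other library. In that other library 3.83% of all genes were more than 2-fold low. Their insulin genes took 43.3% and 42.6% of counts. In preparation 2 of 3 h GLT with compound D the gap of Clock was -1.87. Per3 and Nr1d2 were also low in all 3 of these libraries (gaps from -1.33 to -1.91), whereas Per1, Per2, Cry1, Dbp, Tef, Nr1d1 and Arntl stayed between -0.75 and 0.97. Preparation 2 of condition 3 also stood apart, with 10.7% of all genes more than 2-fold low relative to its condition. In that library 23.4% of reads aligned to more than 1 place, against a median of 6.12%. Where leaving out these libraries changed a call, the value without them is given. In bulk islets, fewer cells that express a gene and less RNA per cell cannot be told apart.

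**Figure D1:**
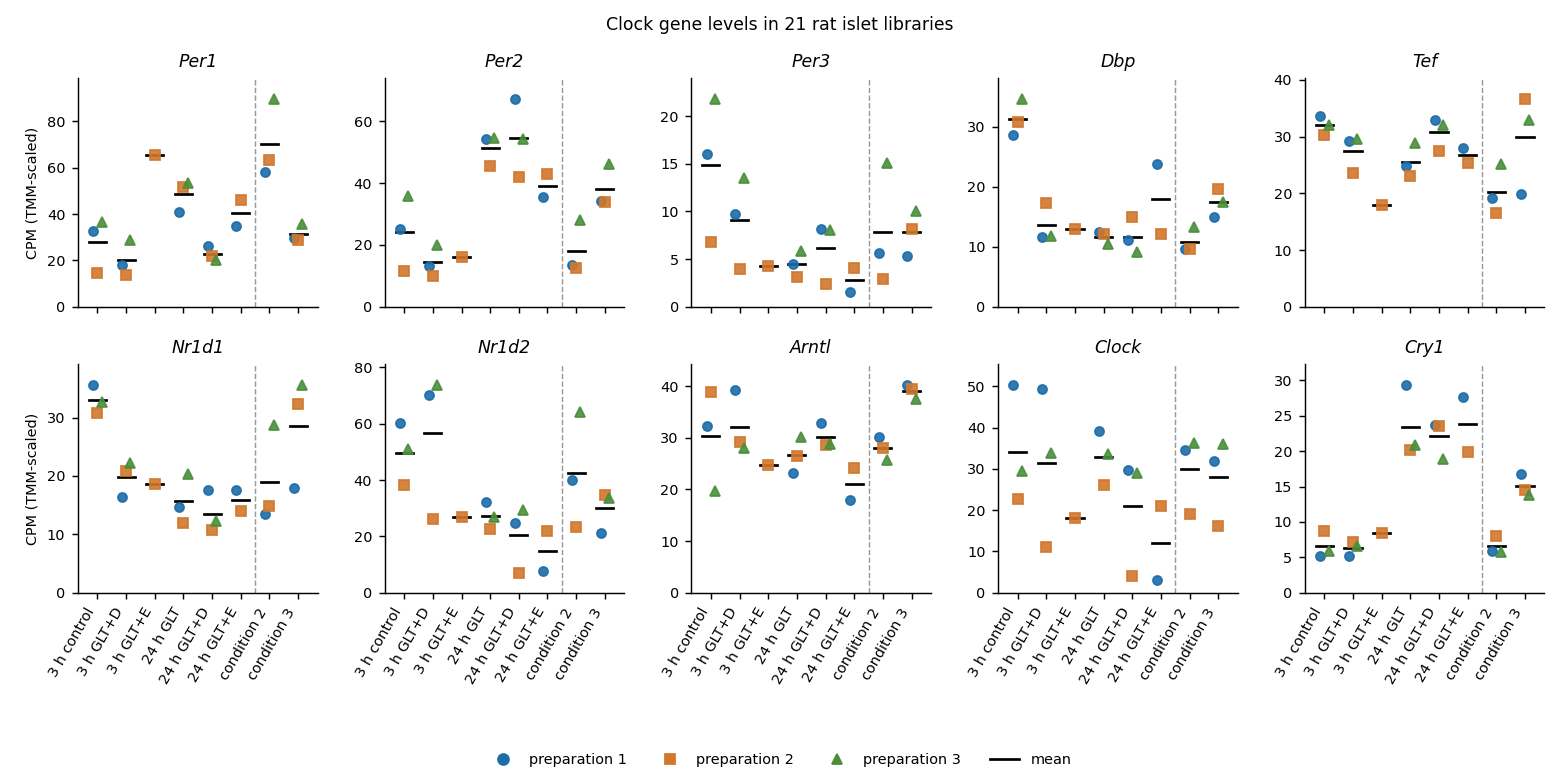
Level of each clock gene in CPM (TMM-scaled, linear axes from 0) in every library, by condition; symbols mark the 3 preparations and bars the mean. Left of the dashed line, Cry1 and Per2 are high in the 24 h groups and Per1 is high in GLT without compound D. Dbp is highest in 3 h control, and Per1 is also high in condition 2. Conditions 2 and 3, right of the dashed line, carry conflicting labels.

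The first comparison sets 24 h of GLT with compound D against 3 h. Per2 and Cry1, both repressors of the loop, were higher at 24 h. Cry1 was at 5.18, 7.16 and 6.55 CPM in preparations 1, 2 and 3 at 3 h and at 23.7, 23.5 and 19.0 CPM at 24 h. Every 24 h library lay more than 2-fold above every 3 h library. The fitted change of Cry1 was 1.80 in log2 (SE 0.23, 3.48-fold, adjusted p = 6.95e-04), by edgeR's quasi-likelihood test with Benjamini-Hochberg adjustment, which gives all adjusted p-values here unless DESeq2 is named. Per2 was at 13.0, 9.99 and 20.1 CPM at 3 h and at 67.2, 42.0 and 54.3 CPM at 24 h, again without overlap, and rose by 1.98 (SE 0.27, 3.96-fold, adjusted p = 0.00106). These were 2 of the 10 clock genes, against 6.11% of all genes tested in either direction. The same 2 of 10 had groups without overlap, as did 19.7% of all genes. Both called genes fell below the threshold without preparation 1 (adjusted p = 0.0969 for Per2 and 0.0519 for Cry1), with fitted changes of 1.76 and 1.62.

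The other 8 genes did not pass at 24 h with compound D. Per1, another period gene, had 20.3 ± 7.91 CPM (SD, n = 3) at 3 h and 22.8 ± 3.02 at 24 h (0.24, SE 0.27, adjusted p = 0.641). The REV-ERB beta gene Nr1d2 was lower at 24 h in all 3 preparations, 20.5 ± 11.8 against 56.7 ± 26.5 CPM, but the groups overlapped and the change of -1.49 (SE 0.47) did not pass (adjusted p = 0.0749). It passed with DESeq2 (adjusted p = 0.0177), without preparation 2 (-1.40, adjusted p = 0.0111) and in a fit of the 2 groups alone (adjusted p = 0.0041). Nr1d2 also passed without the compound E library of preparation 1 (-1.50, adjusted p = 0.024), which is in neither group but shares the fit. The same held without all 3 libraries in which Clock was low (-1.41, adjusted p = 0.0308). Arntl (-0.09, SE 0.20), Dbp (-0.21, SE 0.26), Tef (0.17, SE 0.19), Nr1d1 (-0.53, SE 0.28), Per3 (-0.51, SE 0.46) and Clock (-0.64, SE 0.62) did not pass either. Markers of other cells differed between the same groups: the 5 endothelial markers summed to 16.5 to 79.9 CPM at 24 h and 127 to 162 CPM at 3 h, and the 3 red cell markers to 0.563 to 1.04 and 3.10 to 12.4 CPM, with at most 1 of the 3 at 0 counts in any of these libraries. Their part in the changes of Per2 and Cry1 was not tested.

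For compound D under 24 h GLT, Per1 was the 1 gene of the 10 that passed. Per1 was at 40.9, 51.8 and 53.2 CPM with GLT and at 26.1, 22.0 and 20.2 CPM with GLT and compound D. The lowest GLT library was above the highest compound D library, and Per1 was lower with the compound in each preparation, by 0.65 to 1.40 in log2. The fitted change was -1.08 (SE 0.27, 2.11-fold lower, adjusted p = 0.0356), and 4.08% of all genes tested were called in this comparison. Per1 was also the 1 member of 10 without overlap, where 18.6% of all genes had none. The call was close to the threshold and was lost in 8 of 13 alternatives with changes of -0.95 to -1.30, among them the fit without the preparation block (adjusted p = 0.0829), each fit without 1 preparation (0.0661 to 0.232) and the fit without the compound D library of preparation 2 (0.106). Per2 (51.4 ± 5.05 CPM with GLT, 54.5 ± 12.6 with compound D), Cry1 (23.5 ± 5.11 and 22.1 ± 2.69) and Dbp (11.7 ± 1.07 and 11.7 ± 2.96) had fitted changes of 0.08, -0.09 and -0.0046 in log2. Their 95% intervals ran from -0.48 to 0.64, from -0.56 to 0.37 and from -0.55 to 0.55. Tef was higher in all 3 preparations by 0.15 to 0.41 (0.27, SE 0.19, adjusted p = 0.536) and Clock lower in all 3 (-0.86, 95% interval -2.21 to 0.49), and neither passed. The 3 red cell markers summed to 0.188 to 0.391 CPM with GLT and to 0.563 to 1.04 CPM with compound D, and no other marker list was without overlap between these groups. Both sums are near the floor, with up to 2 of the 3 markers at 0 counts with GLT and up to 1 with compound D.

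None of the 10 genes passed for compound E against 24 h GLT. Per1 was at 34.8 and 46.0 CPM with compound E in preparations 1 and 2, against 40.9 and 51.8 CPM with GLT in the same preparations. Its change was -0.13 (SE 0.30, 95% interval -0.77 to 0.51, adjusted p = 0.853, n = 2 against 3). With edgeR 0 of the 10 genes passed, 0 had an unadjusted p under 0.05, and DESeq2 called 0, while 0% of all genes tested were called. Clock, Nr1d2 and Per2 had lower values without overlap, 3 of 10 against 34.5% of all genes. Beta cell markers summed to 417090 to 626201 CPM with compound E and to 75816 to 267883 CPM with GLT. Markers of alpha, PP, acinar and Schwann cells were also higher with compound E without overlap. The compound E group lacks preparation 3, and the part of these markers was not tested. Dbp was at 23.8 and 12.1 CPM in preparations 1 and 2, with a change of 0.62 (SE 0.29, adjusted p = 0.566). With preparation 2 left out, the compound E group was down to the library that stood apart, and 4 genes then passed: Clock (-3.66), Nr1d2 (-1.88) and Per3 (-1.41) lower and Dbp (1.08) higher.

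Compounds E and D were also set against each other at 24 h. Per1 was higher with compound E in both preparations that held both, 34.8 against 26.1 CPM and 46.0 against 22.0 CPM. The difference of 0.95 (SE 0.30, 95% interval 0.32 to 1.58, adjusted p = 0.0991) did not pass edgeR's test and passed DESeq2 (adjusted p = 0.0479). By edgeR 0 of 10 clock genes passed, 3 had an unadjusted p under 0.05 (Per1, Arntl and Dbp) and DESeq2 called 1, where 3.01% of all genes tested were called. Per1 and Arntl, 2 of 10, were without overlap, as were 23.3% of all genes. Arntl was lower with compound E (21.1 ± 4.36 against 30.1 ± 2.43 CPM; -0.57, SE 0.24, adjusted p = 0.209). For Per2, Cry1 and Tef the 95% intervals were -0.90 to 0.38, -0.48 to 0.58 and -0.60 to 0.33. Without preparation 2, 5 genes passed (Clock, Nr1d2, Per3 and Arntl lower and Dbp higher), again from the compound E library that stood apart, and without preparations 1 or 3 none did.

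**Figure D2:**
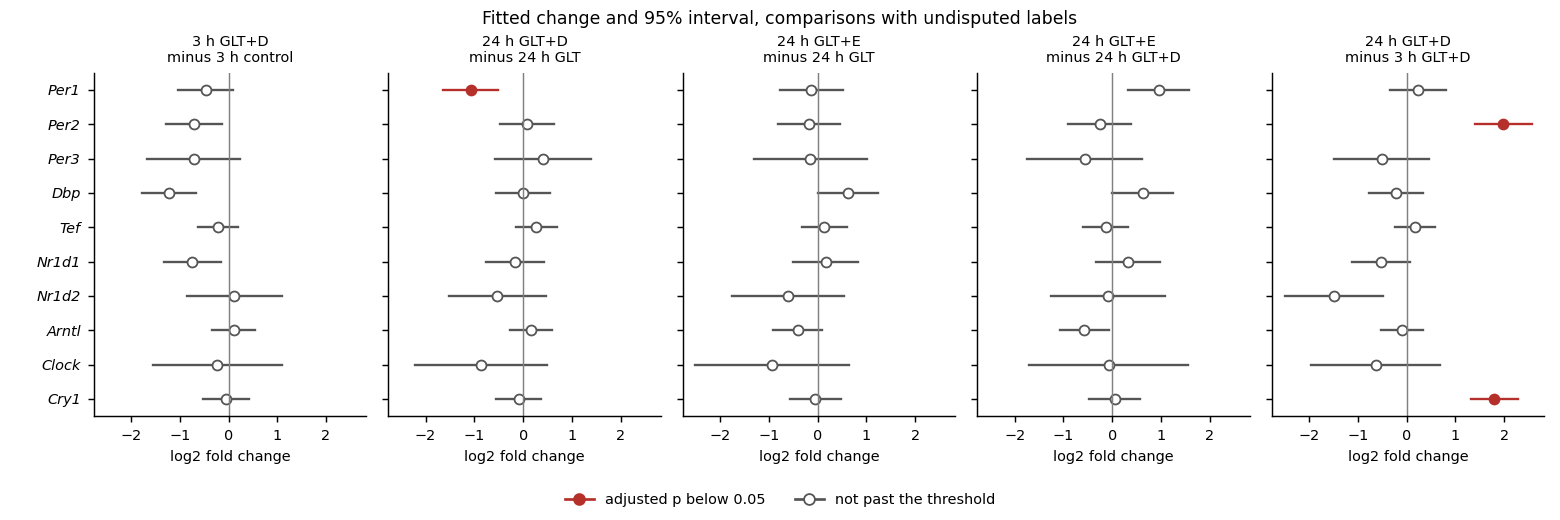
Fitted log2 fold change of each clock gene with its 95% interval in the 5 comparisons free of the label conflict; filled red points passed at an adjusted p below 0.05. Per1 passed for compound D under 24 h GLT (-1.08), and Per2 (1.98) and Cry1 (1.80) for 24 h against 3 h with compound D in GLT.

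At 3 h, GLT with compound D was compared with 3 h control, and the output gene Dbp stood at the top of the 10 genes by p. Dbp was at 28.6, 30.9 and 34.7 CPM in control and at 11.7, 17.2 and 11.8 CPM with GLT and compound D, so that the groups were separate. The change of -1.22 (SE 0.26, 2.32-fold lower) had an adjusted p of 0.105 and did not pass. It passed with DESeq2 (adjusted p = 0.00246), without preparation 2 (-1.40, adjusted p = 0.016) without the compound E library of preparation 1 (adjusted p = 0.0205) and without all 3 libraries in which Clock was low (-1.39, adjusted p = 0.0122). By edgeR 0 of 10 genes passed, 3 had an unadjusted p under 0.05 (Dbp, Nr1d1 and Per2) and DESeq2 called 1, while 0.103% of all genes tested were called. Dbp, Nr1d1 and Tef, 3 of 10, were without overlap, against 7.31% of all genes. Nr1d1, at 33.0 ± 2.44 CPM in control and 19.8 ± 2.99 with GLT and compound D, was lower in each preparation (-0.75, SE 0.27, adjusted p = 0.567). Per2 was lower in each preparation (24.2 ± 12.2 against 14.4 ± 5.18 CPM; -0.71, SE 0.27, adjusted p = 0.579) and so was Per1 (27.9 ± 11.6 against 20.3 ± 7.91 CPM; -0.47, SE 0.27). Cry1 was at 6.59 ± 1.85 and 6.30 ± 1.01 CPM (-0.05, 95% interval -0.53 to 0.42), and Arntl at 30.3 ± 9.66 and 32.2 ± 6.22 CPM (0.10, 95% interval -0.33 to 0.54). Nr1d1 overlaps the thyroid receptor gene Thra in RefSeq, and whether reads were counted by strand is not given in the sources used here. Thra itself had a fitted value of -0.17 (SE 0.24) in this comparison. RefSeq also places other gene models over Cry1 (LOC120093541), Per2 (LOC134480412) and Clock (LOC134481741 and LOC108352740), and whether their reads entered the counts of these genes was not tested.

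The 1 library of 3 h GLT with compound E allowed values but no test. Its Per1 level was 65.5 CPM (1948 reads), against 13.6 CPM (425 reads) in the compound D library and 14.7 CPM (402 reads) in the control library of the same preparation. The ratio was 4.80 to compound D (95% counting interval 4.32 to 5.34) and 4.46 to control (4.00 to 4.98). These intervals (exact, from the binomial distribution) cover counting error only. Dbp was at 12.9 CPM in this library, 0.42 times the control library of the preparation (0.371 to 0.474), and Cry1 was at 8.37 CPM, 0.96 times control (0.803 to 1.15). Over the libraries free of the label conflict, Per1 ran from 34.8 to 65.5 CPM in the 6 GLT libraries without compound D and from 13.6 to 29.0 CPM in the 6 with it, with no overlap. In the 3 control libraries it ran from 14.7 to 36.4 CPM. These ranges mix both times, and the 6 without compound D include those with compound E. The share of all genes with such a split was not computed. Condition 3, 3 h GLT by the record, had 28.7 to 35.9 CPM of Per1, which overlaps the range with compound D. Condition 2, 3 h GLT by the sheet, had 58.1 to 89.7 CPM.

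Cry1 separated the labelled times across the undisputed libraries, and Per2 did so except for a slight overlap. The undisputed 24 h libraries were all in GLT medium, while those at 3 h include the control libraries, so time and medium are mixed. The share of all genes that separate these libraries was not computed. In the 7 undisputed 3 h libraries Cry1 ran from 5.18 to 8.70 CPM and in the 8 undisputed 24 h libraries from 19.0 to 29.4 CPM. Condition 2 lay at 5.93, 8.08 and 5.71 CPM in preparations 1, 2 and 3, inside the 3 h range, and condition 3 at 16.8, 14.6 and 13.8 CPM, between both ranges. Per2 ran from 9.99 to 35.8 CPM at 3 h and from 35.4 to 67.2 CPM at 24 h, which overlap slightly. Condition 2 had 13.6, 12.6 and 28.1 CPM and condition 3 had 34.2, 33.9 and 46.1 CPM of Per2. Red cell markers summed to 3.10 to 12.4 CPM in the undisputed 3 h libraries and 0.188 to 1.06 CPM at 24 h. Condition 2 had 8.06 to 12.3 and condition 3 0.430 to 0.571 CPM. Endothelial markers summed to 127 to 171 CPM at 3 h and 16.5 to 79.9 CPM at 24 h. Condition 2 had 156 to 180 and condition 3 56.5 to 87.2 CPM. Stellate markers in condition 3 (1052 to 1470 CPM) lay above every undisputed library. These levels describe the libraries and were not used to relabel them. With the mean of each preparation removed, Per2 and Cry1 had a Pearson r of 0.86 over the 21 libraries, a description, since libraries of a preparation share their islets.

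**Figure D3:**
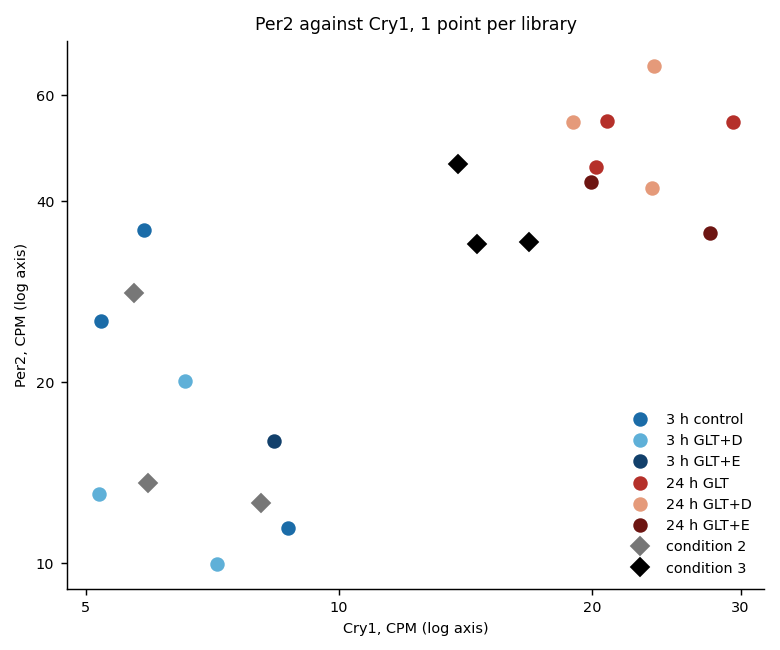
Per2 against Cry1 in CPM (log axes), 1 point per library, diamonds for conditions 2 and 3. The 8 undisputed 24 h libraries sit at 19.0 CPM of Cry1 or more and the 7 undisputed 3 h libraries at 8.70 CPM or less.

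Condition 2 against 3 h control is the effect of 3 h GLT by the deposited sheet and that of culture time in control medium by the record. Per1 rose and Dbp fell. Per1 was at 32.7, 14.7 and 36.4 CPM in 3 h control and at 58.1, 63.5 and 89.7 CPM in condition 2, higher in each preparation and without overlap (1.35, SE 0.27, 2.56-fold, adjusted p = 0.0135). Dbp, at 28.6 to 34.7 CPM in control, was at 9.60, 9.70 and 13.3 CPM in condition 2 (-1.52, SE 0.26, 2.88-fold lower, adjusted p = 0.00504). These were 2 of 10 members, where 2.31% of all genes tested were called, and 4 of 10 were without overlap, where 16.1% of all genes were. Tef, the other output gene, was lower in every preparation (32.0 ± 1.71 against 20.3 ± 4.46 CPM; -0.67, SE 0.19), as was Nr1d1 (33.0 ± 2.44 against 19.1 ± 8.44 CPM; -0.85, SE 0.28), each without overlap, but neither passed (adjusted p = 0.095 and 0.149), though Tef passed DESeq2 (adjusted p = 0.032). Cry1 was at 6.57 ± 1.31 against 6.59 ± 1.85 CPM (-0.0035, 95% interval -0.48 to 0.47). Without preparation 1 or 3 neither call held (adjusted p = 0.18 and 0.162 for Per1, 0.147 and 0.0972 for Dbp), and with library size as the only scaling Per1 was lost (1.09, adjusted p = 0.162).

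Condition 3 against 3 h control is culture time in control medium by the sheet and the effect of 3 h GLT by the record. Cry1 rose from 5.21, 8.70 and 5.87 to 16.8, 14.6 and 13.8 CPM, without overlap (1.20, SE 0.22, 2.30-fold, adjusted p = 0.0251). It was the 1 member of 10 called, against 0.692% of all genes tested. Cry1, Dbp and Nr1d2, 3 of 10, were without overlap, against 12.8% of all genes. Per2 was higher in each preparation (24.2 ± 12.2 against 38.1 ± 6.95 CPM; 0.74, SE 0.27, adjusted p = 0.238) and Dbp lower, 17.4 ± 2.35 against 31.4 ± 3.09 CPM without overlap (-0.85, SE 0.26, adjusted p = 0.153). Dbp passed DESeq2 (adjusted p = 0.049), and passed without the compound E library of preparation 1 (0.0464) and without all 3 libraries in which Clock was low (0.027). Per1 was at 31.5 ± 3.86 against 27.9 ± 11.6 CPM (0.21, SE 0.27). The Cry1 call was lost in 6 of 14 alternatives, among them no preparation block (adjusted p = 0.0534), library size only (0.0907), a fit of the 2 groups alone (0.55) and the fits without preparation 1 (0.377) or 3 (0.297), and also without the condition 3 library of preparation 2 (0.0618), while the fitted change stayed between 0.98 and 1.47. Red cell markers summed to 0.430 to 0.571 CPM in condition 3 and 6.50 to 8.15 CPM in 3 h control, stellate cell markers to 1052 to 1470 and 380 to 569 CPM, and endothelial markers to 56.5 to 87.2 and 145 to 171 CPM. Their part in the change of Cry1 was not tested.

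The change to 24 h GLT depended on which condition it was set against. Against condition 2 (24 h control by the record, 3 h GLT by the sheet) Per2 rose from 13.6, 12.6 and 28.1 to 54.3, 45.6 and 54.4 CPM (1.59, SE 0.27, 3.02-fold, adjusted p = 0.00322). Cry1 rose from 5.93, 8.08 and 5.71 to 29.4, 20.2 and 20.8 CPM (1.84, SE 0.23, 3.58-fold, adjusted p = 3.7e-04). These 2 of 10 members were called, against 8.52% of all genes tested, and with Per1 they were the 3 of 10 without overlap, against 33.4% of all genes. Per1 was lower with 24 h GLT than in condition 2 in every preparation (48.6 ± 6.77 against 70.4 ± 16.9 CPM), without passing (-0.51, SE 0.26, adjusted p = 0.267). In a fit of the 2 groups alone Per1 passed (-0.51, adjusted p = 0.0122), and so did Tef (0.35, adjusted p = 0.049). Dbp, at 11.7 ± 1.07 and 10.9 ± 2.14 CPM, had a change of 0.10 (SE 0.26). Without preparation 1 Per2 was lost (1.42, adjusted p = 0.145) and without preparation 3 Cry1 was (1.84, adjusted p = 0.0531). The endothelial markers (23.3 to 70.4 against 156 to 180 CPM) and red cell markers (0.188 to 0.391 against 8.06 to 12.3 CPM) were lower with 24 h GLT, and their part was not tested.

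Against condition 3 (3 h GLT by the record, 24 h control by the sheet) no member passed at 24 h GLT. By edgeR 0 of 10 passed, 5 had an unadjusted p under 0.05 and DESeq2 called 1 (Nr1d1, adjusted p = 0.0309), while 5.97% of all genes tested were called. Nr1d1 was lower in every preparation, 15.7 ± 4.33 against 28.6 ± 9.39 CPM (-0.88, SE 0.28, adjusted p = 0.0735). Thra, which overlaps Nr1d1, fell in the same comparison (-1.18, SE 0.24, adjusted p = 0.013), and whether reads of one were counted for the other was not tested. Without overlap were 4 of 10, where 28.5% of all genes tested were: Arntl (39.1 ± 1.38 to 26.6 ± 3.49 CPM; -0.54, SE 0.20) and Dbp (17.4 ± 2.35 to 11.7 ± 1.07 CPM; -0.57, SE 0.26) lower and Cry1 (15.1 ± 1.55 to 23.5 ± 5.11 CPM; 0.64, SE 0.22) and Per1 (31.5 ± 3.86 to 48.6 ± 6.77 CPM; 0.64, SE 0.26) higher, with adjusted p of 0.133, 0.215, 0.1 and 0.176. Without the 3 libraries in which Clock was low, Dbp passed (-0.58, adjusted p = 0.0431), and without the condition 3 library of preparation 2 no call changed. Stellate markers summed to 454 to 857 CPM with 24 h GLT and 1052 to 1470 CPM in condition 3. The 1 duct marker present (4.18 to 10.5 against 10.9 to 24.3 CPM) was also lower without overlap. So were Schwann (2.86 to 3.39 against 4.06 to 9.27 CPM) and red cell markers (0.188 to 0.391 against 0.430 to 0.571 CPM). Their part in these changes was not tested.

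Compound D at 3 h has to be set against condition 2 by the sheet and condition 3 by the record. Against condition 2, Per1 was lower with compound D in each preparation, 18.1, 13.6 and 29.0 CPM against 58.1, 63.5 and 89.7 CPM (-1.82, SE 0.27, 3.54-fold, adjusted p = 0.00526). It was the only member of 10 that passed, where 0.493% of all genes tested were called, and the 1 of 10 without overlap, where 12.1% of all genes were. The other 9 had fitted values of -0.31 to 0.45. Against condition 3, Cry1 (6.30 ± 1.01 against 15.1 ± 1.55 CPM; -1.25, SE 0.22, adjusted p = 0.00577) and Per2 (14.4 ± 5.18 against 38.1 ± 6.95 CPM; -1.45, SE 0.27, adjusted p = 0.00732) were lower, 2 of 10 against 6.93% of all genes tested. They were also the 2 of 10 without overlap, against 22.4% of all genes. Per1 did not pass (-0.68, SE 0.27, adjusted p = 0.145). All 3 calls were lost without preparation 1 and without preparation 3 (adjusted p from 0.0657 to 0.41). With library size only, Per1 (-1.53, adjusted p = 0.136) and Per2 (-1.30, adjusted p = 0.0521) were lost, and in a fit of the 2 groups alone Per2 (adjusted p = 0.163) and Cry1 (adjusted p = 0.171) were. Nr1d2, at 56.7 ± 26.5 against 29.9 ± 7.42 CPM (0.80, SE 0.47, adjusted p = 0.341), passed against condition 3 without preparation 2 (1.42, adjusted p = 0.00858) and without the 3 libraries in which Clock was low (1.11, adjusted p = 0.0364). Between conditions 5 and 3 the stellate markers summed to 327 to 454 and 1052 to 1470 CPM, the endothelial markers to 127 to 162 and 56.5 to 87.2 CPM and the red cell markers to 3.10 to 12.4 and 0.430 to 0.571 CPM, and their part in the changes of Cry1 and Per2 was not tested.

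At 24 h, GLT with compound D was set against each candidate control. Against condition 3 (24 h control by the sheet) edgeR called 0 of 10 members, 3 had an unadjusted p under 0.05 and DESeq2 called 1 (Nr1d1, adjusted p = 0.0168), with 0.716% of all genes tested called. Without overlap were 5 of 10 (Arntl, Cry1, Dbp, Nr1d1 and Per1), against 12.4% of all genes. Nr1d1 was at 13.5 ± 3.53 against 28.6 ± 9.39 CPM (-1.05, SE 0.28, adjusted p = 0.108), and Per1 at 22.8 ± 3.02 against 31.5 ± 3.86 CPM (-0.44, SE 0.27). Stellate markers summed to 327 to 839 CPM in condition 6 and 1052 to 1470 CPM in condition 3, and their part was not tested. Against condition 2 (24 h control by the record) Per2 (1.67, SE 0.27, adjusted p = 0.00126) and Cry1 (1.75, SE 0.23, adjusted p = 2.35e-04) were higher and Per1 (-1.59, SE 0.27, adjusted p = 0.00176) lower, 3 of 10 against 12.5% of all genes tested. With Tef (0.61, SE 0.19, adjusted p = 0.0509) they made 4 of 10 without overlap, against 27.5% of all genes. Per2 was lost without preparation 1 (adjusted p = 0.0757) and Per1 without preparation 3 (adjusted p = 0.0683). Tef passed with DESeq2 (adjusted p = 0.0249), with its size factors in edgeR (0.0496) and without the compound E library of preparation 1 (0.0412). Nr1d2 (-1.07, SE 0.47, adjusted p = 0.152) passed without preparation 2 (0.0388) and in a fit of the 2 groups alone (0.0278). The endothelial markers summed to 16.5 to 79.9 CPM in condition 6 and 156 to 180 CPM in condition 2, and the red cell markers to 0.563 to 1.04 and 8.06 to 12.3 CPM, and their part in these changes was not tested. These comparisons share the libraries of condition 2, 3 or 6 with others above, so their values are not independent of one another. A last contrast asked whether the effect of GLT changed from 3 h to 24 h, and its value does not depend on the reading. By edgeR 0 of 10 members passed it, 2 had an unadjusted p under 0.05 and DESeq2 called 0, while 0.0716% of all genes tested were called. Dbp (0.95, SE 0.36, adjusted p = 0.472) and Per2 (0.85, SE 0.38, adjusted p = 0.557) had the largest positive values.

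**Figure D4:**
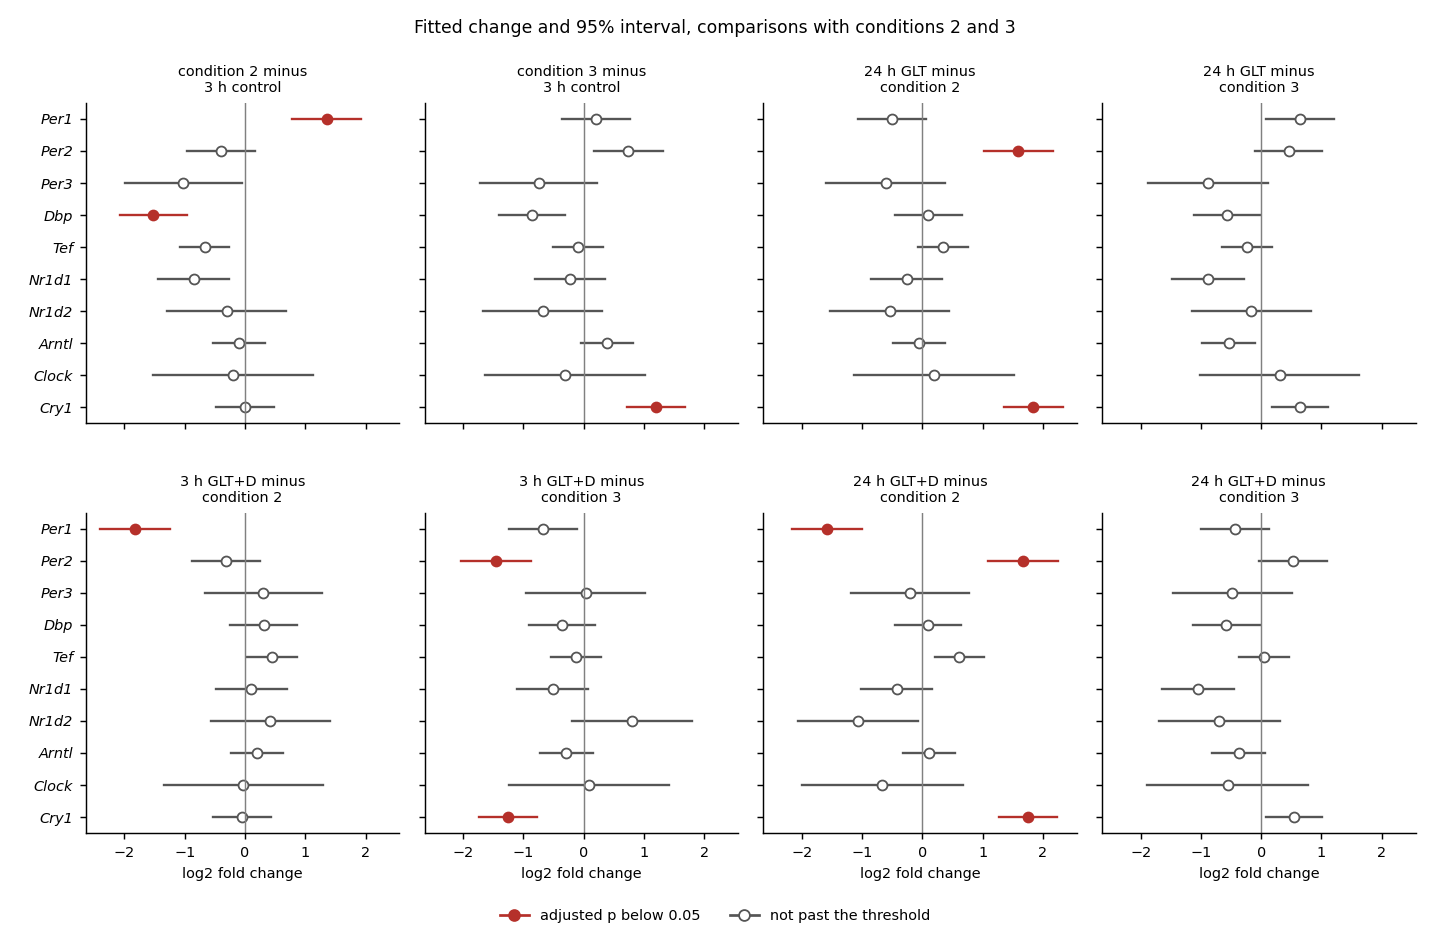
Fitted log2 fold change of each clock gene with its 95% interval in the 8 comparisons with conditions 2 and 3, whose labels conflict; filled red points passed at an adjusted p below 0.05. Per1 passed in 3 of the 4 comparisons with condition 2, and Cry1 and Per2 passed together in 24 h groups against condition 2 and in 3 h GLT with compound D against condition 3.

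Other genes of the clock were read from a list of 21, of which 16 were tested. Cry2 is the other cryptochrome gene, and from 3 h to 24 h in GLT with compound D it fell from 161 to 52.0 CPM (-1.64, SE 0.36, adjusted p = 0.0164). Rora, which encodes an activator of Arntl, also fell there (-1.02, SE 0.27, adjusted p = 0.0385), and in all 3 of 16 were called lower and 0 higher, against 6.11% of all genes tested in either direction (median -0.43, against 0.02 over all genes). Compound D under 24 h GLT lowered 1 of 16, where 4.08% of all genes tested were called. It was the ROR gene Rorb, which went from 7.19 to 1.17 CPM (-2.61, SE 0.52, adjusted p = 0.0128). The list median was -0.41, against 0.01 over all genes. Nfil3, a repressor at D-boxes, was higher with compound E than with compound D (62.1 against 31.7 CPM; 1.06, SE 0.27, adjusted p = 0.0484). In condition 2 against 3 h control 3 of 16 rose and 0 fell, where 2.31% of all genes tested were called. The 3 were Nfil3 (23.0 to 85.2 CPM, 1.91, SE 0.25), Cry2 (45.1 to 232 CPM, 2.33, SE 0.37) and Rorb (2.15, SE 0.51). Npas2, a close relative of Clock, was lower in 24 h GLT with compound D than in condition 3 (11.9 against 22.9 CPM; -0.94, SE 0.18, adjusted p = 0.0293).

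In the comparisons with conditions 2 and 3 the same list gave these counts. Against condition 2, 2 of 16 were lower in 24 h GLT (Cry2, -1.66, SE 0.36, and the casein kinase gene Csnk1e, -0.76, SE 0.18). In GLT with compound D, 5 were lower than in condition 2 at 24 h and 1 at 3 h (Nfil3, -1.21, SE 0.24, adjusted p = 0.0411). Over all genes tested the shares called in these were 8.52%, 12.5% and 0.493%. Against condition 3, 2 were higher in 24 h GLT (Rorb, 3.62, SE 0.56, and Nfil3, 1.14, SE 0.24), where 5.97% of all genes were called. In 3 h GLT with compound D, 4 were higher than in condition 3 (Cry2, Rorb, Csnk1d and Csnk1e), where 6.93% of all genes were called. None of the 16 passed edgeR's test for compound E against 24 h GLT, for 3 h GLT with compound D or condition 3 against 3 h control, or for the change of the GLT effect. At an unadjusted p under 0.05 those had 0, 4, 2 and 2 genes. DESeq2 was not run on these lists.

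Genes through which Per1 is known to be switched on acutely, or which respond to the same signals, gave 14 tested of 16 listed. Under 24 h GLT, compound D lowered the cyclic AMP target genes Sik1 (55.2 to 16.5 CPM; -1.81, SE 0.36, adjusted p = 0.0128) and Crem (287 to 141 CPM; -1.05, SE 0.26, adjusted p = 0.0348). The glucocorticoid-responsive genes Fkbp5 (0.66, SE 0.15, adjusted p = 0.0263) and Tsc22d3 (0.82, SE 0.22, adjusted p = 0.0484) rose. That gave 2 up and 2 down of 14, where 4.08% of all genes tested were called. In condition 2 against 3 h control Crem (176 to 596 CPM, 1.76, SE 0.26), Nr4a1 (2.69, SE 0.43), Sik1 (2.18, SE 0.36) and Fos (2.59, SE 0.53) rose. These were 4 of 14, and 0 fell, where 2.31% of all genes tested were called. The list median was 0.54, against -0.02 over all genes. With compound D at 3 h, Sik1 was lower than in condition 2, 3 h GLT by the sheet (35.1 against 113 CPM, -1.73, SE 0.36, adjusted p = 0.0482). It was the 1 of 14 called, where 0.493% of all genes tested were. Against condition 3, 3 h GLT by the record, 3 of 14 were called higher and 0 lower, where 6.93% of all genes were called. The mean of Sik1 in condition 3 was 20.9 CPM, so the direction depends on the reading of the labels. Of 13 tested output genes, Ccrn4l, which encodes nocturnin (69.9 to 104 CPM, 0.58, SE 0.14, adjusted p = 0.0347), and Klf10 (20.7 to 42.2 CPM, 1.02, SE 0.27, adjusted p = 0.0492) rose with compound D under 24 h GLT. Lonrf3 fell there (-1.97, SE 0.37, adjusted p = 0.0095), which made 2 up and 1 down, against the same 4.08% of all genes. Compound E against compound D gave the opposite sign for Ccrn4l (-0.73, SE 0.17), Klf10 (-1.32, SE 0.32), Lonrf3 (1.94, SE 0.42) and Fkbp5 (-0.84, SE 0.18). All were past the threshold, where 3.01% of all genes tested were called. The 24 h libraries of compound D serve in both comparisons. The cell cycle kinase gene Wee1 was the 1 output gene of 13 called from 3 h to 24 h in GLT with compound D (17.3 to 33.4 CPM, 0.95, SE 0.18, adjusted p = 0.00707). Of all genes tested 6.11% were called in that comparison.

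In the fit of all libraries no comparison called Arntl, Clock, Per3, Nr1d1, Nr1d2 or Tef. Arntl had its highest mean in condition 3, 39.1 ± 1.38 CPM, and its lowest in 24 h GLT with compound E, 21.1 ± 4.36 CPM (n = 2). The other groups with 3 libraries lay at 26.6 to 32.2 CPM. Clock, its partner, went with the preparation, with a median of 18.6 CPM in preparation 2 against 34.5 and 33.7 CPM in preparations 1 and 3. The SE of its log2 changes was 0.62 or more in every comparison. Per3 was highest in 3 h control, 16.0, 6.76 and 21.8 CPM in preparations 1, 2 and 3, and lowest in 24 h GLT with compound E, 1.59 and 4.10 CPM. Its largest fitted change, condition 2 against 3 h control, was -1.02 (SE 0.46, adjusted p = 0.343), and it passed in a fit of these 2 groups alone (-1.07, adjusted p = 0.0326). Nr1d2 ran from 26.2 to 73.8 CPM in the 7 undisputed 3 h libraries and from 7.17 to 32.4 CPM in the 8 at 24 h, an overlap of their ends. Nr1d1 ran from 16.5 to 35.6 CPM at 3 h and from 10.8 to 20.4 CPM at 24 h. Tef stayed between 16.5 and 36.7 CPM in all 21 libraries.

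Co-variation of the members was described over the 21 libraries with the mean of each preparation removed. Dbp went with Nr1d1 (r = 0.76) and Per3 with Nr1d2 (r = 0.83), while Cry1 ran against Nr1d2 (r = -0.75). Arntl and Nr1d1 had r = 0.30. Clock and Nr1d2 had r = 0.81, which dropped to 0.38 without the 2 libraries in which Clock was below 5 CPM, and Dbp with Per3 went from 0.37 to 0.75. The genes most like Per1 outside the members were Dyrk3 (r = 0.90), Trib1 (0.86), Enc1 (0.84), Iqsec3 (0.84) and Adra2a (0.83). Those most like Dbp were O3far1 (0.81), Pts (0.80), Mmaa (0.80), Rtn4r (0.77) and Vps37d (0.77), and those most like Arntl were Kremen1, Fhod3, Usp49, RGD1307947 and Rere (0.85 to 0.86). All share depth, scaling and culture groups, and the values are given with no test.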

How the data were processed

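RNA from rat islets was measured by paired 100-base sequencing in 21 libraries. Per the labels' protocols, the authors mapped reads to rn5 (TopHat2 2.0.3 with Bowtie2 2.0.0) and counted them per gene with HTSeq. The deposited values are raw counts per gene, not normalized. Strand setting and annotation are not given in the sources used here. The 5 entries that name no gene were left out: reads outside genes were 10.3% to 18.7% of a column, multiply aligned reads 4.92% to 23.4% and ambiguous reads 0.161% to 2.32%.

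All 21 libraries were fitted together in edgeR 4.0.16 (R 4.3.3), modelled by condition plus preparation, after filterByExpr (12576 genes) and TMM scaling. The quasi-likelihood test was 2-sided and p-values were adjusted by Benjamini-Hochberg over all genes, with a threshold of 0.05. Log2 CPM used a prior count of 2. The preparation is kept as a block because the design gives it as a shared islet pool. As a check, residuals of libraries from 1 preparation correlated at 0.205 on average (0.0698, 0.183 and 0.425 for preparations 1, 2 and 3), those of different preparations at -0.158. The mean of each condition was taken out first, which by itself pushes the value for different preparations down, so the gap is partly built in. DESeq2 1.42.0 was an alternative. Members and gene lists were chosen with earlier results of these data known. The named genes were all members, list genes that passed (up to 4 per list and comparison) and the 5 most similar genes of Dbp, Per1 and Arntl. For 1 gene of the list of other clock genes, values are not reported here.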

Additional observations from a re-analysis of the deposited data

Results flagged for a closer look

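If the record's labels hold, condition 2 against 3 h control is 24 h against 3 h in control medium. Tef was then lower in all 3 preparations in control medium (-0.67, SE 0.19) and higher in all 3 under GLT with compound D (0.17, SE 0.19), a gap of 0.84 in log2. The difference was not tested, and neither change passed edgeR's test on its own, while DESeq2 called the first (adjusted p = 0.032). By the sheet's labels condition 2 is 3 h GLT and this contrast of times does not arise.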

How the results depend on the processing

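Over 13 alternatives (14 with condition 3), 0 values of a member that passed in either fit changed direction. Of 1870 values of single members, 35 no longer passed and 38 newly passed. Without the replicate block the count of members called went to 0 for compound D under 24 h GLT and to 0 for condition 3 against 3 h control, and it changed no other count of members. Library size only gave 0 in both of these, 1 for condition 2 against 3 h control, 1 for 3 h GLT with compound D against condition 3 and 0 against condition 2. This scaling moved the median of all genes to -0.29 for condition 2 against 3 h control, -0.14 for condition 3 against it, -0.36 and -0.39 for compound E against GLT and against compound D, 0.24, 0.31 and 0.25 for conditions 4, 5 and 6 against condition 2, 0.15 for condition 5 against condition 3, and 0.38 for the change of the GLT effect. DESeq2 gave 1 in place of 0 for 3 h GLT with compound D against control, compound E against compound D, 24 h GLT against condition 3 and 24 h GLT with compound D against condition 3, 2 for condition 3 against 3 h control, 3 for 24 h against 3 h with compound D and for condition 2 against 3 h control, and 4 for 24 h GLT with compound D against condition 2. DESeq2's size factors in edgeR gave 4 for the last of these, and no filter on low counts changed no count. A fit of only the groups compared gave 0 for condition 3 against 3 h control, 4 for 24 h GLT against condition 2 0 for 3 h GLT with compound D against condition 3, 3 for 24 h against 3 h with compound D and for condition 2 against 3 h control, and 4 for 24 h GLT with compound D against condition 2.

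Leaving out a whole preparation gave 0 to 1 for 3 h GLT with compound D against control, 0 to 0 for compound D under 24 h GLT, 0 to 4 for compound E, 0 to 5 for compound E against compound D, 0 to 3 for 24 h against 3 h with compound D, 0 to 2 for condition 2 and 0 to 1 for condition 3 against 3 h control, 1 to 2 for 24 h GLT against condition 2, 0 to 3 and 0 to 1 for 3 h GLT with compound D against conditions 3 and 2, 2 to 4 for 24 h GLT with compound D against condition 2, and 0 to 0 for 24 h GLT and 24 h GLT with compound D against condition 3 and for the change of the GLT effect. Without the compound E library of preparation 1 the count was 1 for 3 h GLT with compound D against control, 2 for condition 3 against control, 3 for 24 h against 3 h with compound D and 4 for 24 h GLT with compound D against condition 2. Without the 24 h compound D library of preparation 2 it was 0 for compound D under 24 h GLT. Alternatives added after seeing the data left out both of these libraries, both with the 3 h compound D library of preparation 2, or the condition 3 library of preparation 2. The first gave 1, 0 and 2 for 3 h GLT with compound D against control, compound D under 24 h GLT and condition 3 against control. The second gave the same, 1 for 24 h GLT against condition 3, and 3 for 24 h against 3 h with compound D and for 3 h GLT with compound D against condition 3. The last gave 0 for condition 3 against control. The cause of these shifts was not tested. In fits that leave 1 library in a group, that library is assumed to vary like the others. The lowest member count was 33 reads.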
